A study of Homo sapiens with 6 samples.

Results

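The transcripts of the human mitochondrial genome were followed in the RNA-seq libraries of MDA-MB-231 cells, a human triple-negative breast cancer cell line. The members were all genes whose symbol starts with MT- in the deposited count tables, which gave 37 genes of 41471 symbols in the knockdown table and the same 37 genes of 34157 symbols in the Reb table. They comprise 2 rRNA genes, 13 mRNA genes and 22 tRNA genes. All 37 had a mean of at least 1 CPM (counts scaled to the library's total) in each experiment, so that none was lost among the 15295 and 15655 genes that were compared. The markers MT-RNR2 and MT-ND4 were abundant in all 6 libraries, with 127596 to 1106253 and 394737 to 1052765 counts.

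The study asked what CDK16, an atypical cyclin-dependent kinase, does in triple-negative breast cancer. In the knockdown experiment, MDA-MB-231 cells had been stably transfected by lentivirus with CDK16-sh1, CDK16-sh2 or a scramble shRNA as control, where an shRNA is a hairpin RNA that is processed into a guide against matching transcripts. In the second experiment, MDA-MB-231 cells for which no hairpin is named received either Reb at 1 μM or 5 μM, or its vehicle DMSO, for 48 h, where Reb is rebastinib, a kinase inhibitor that the study used against CDK16. Each condition had 1 library, so no difference between 2 libraries has a replicate check, and the labels do not say whether a hairpin line is a clone or a pool of cells.

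The mitochondrial genome is a small circular DNA that is transcribed from both strands into long precursor RNAs. In most places tRNAs lie between the rRNAs and mRNAs, and cutting the precursor at the tRNAs releases the mature transcripts. The mRNAs encode core subunits of respiratory complexes I, III, IV and V, the rRNAs and tRNAs serve the mitochondrial ribosome, and every protein that copies, transcribes and processes this genome is encoded in the nucleus.

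The sequences printed here are some of the tRNAs at or near either end of the range of log2 fold changes, and parts of genes that touch or overlap. Both matter for reading the values that follow. They are from GENCODE 29 on GRCh38, whose coordinates equalled those of the deposited tables for all 37 genes, and they are written 5′ to 3′ as DNA. In the tRNAs the capitals mark the anticodon, found as the triplet that reads the gene's amino acid in the middle of a loop of 7 bases whose stem forms at least 3 of 5 possible pairs. Of the tRNAs printed, MT-TS2 has 3 pairs, MT-TV, MT-TL1 and MT-TL2 have 4, and the others 5. MT-TV (tRNA-Val, chrM:1602-1670, plus strand), MT-TL1 (tRNA-Leu, chrM:3230-3304, plus strand) and MT-TM (tRNA-Met, chrM:4402-4469, plus strand) were among the 5 genes with the highest tRNA log2 fold changes at 5 μM Reb.
MT-TV: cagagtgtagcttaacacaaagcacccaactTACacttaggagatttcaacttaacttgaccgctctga
MT-TL1: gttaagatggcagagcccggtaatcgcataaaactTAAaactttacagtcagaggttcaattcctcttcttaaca
MT-TM: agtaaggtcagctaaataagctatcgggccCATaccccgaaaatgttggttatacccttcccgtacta
The next 3 tRNAs, MT-TH (tRNA-His, chrM:12138-12206), MT-TS2 (tRNA-Ser, chrM:12207-12265) and MT-TL2 (tRNA-Leu, chrM:12266-12336), lie side by side on the plus strand and had the lowest tRNA log2 fold changes at that dose.
MT-TH: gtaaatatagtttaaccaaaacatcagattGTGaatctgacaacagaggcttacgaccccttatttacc
MT-TS2: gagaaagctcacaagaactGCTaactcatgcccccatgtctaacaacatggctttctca
MT-TL2: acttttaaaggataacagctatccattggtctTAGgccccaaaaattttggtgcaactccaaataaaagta
A further 3 tRNAs are shown as examples whose counts lay above scramble with 1 hairpin and below it with the other. Counts of MT-TM, MT-TS2 and MT-TL2 were divided in this way too. The 3 examples are MT-TK (tRNA-Lys, chrM:8295-8364, plus strand), MT-TA (tRNA-Ala, chrM:5587-5655, minus strand) and MT-TN (tRNA-Asn, chrM:5657-5729, minus strand).
MT-TK: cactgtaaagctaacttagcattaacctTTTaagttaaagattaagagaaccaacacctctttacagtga
MT-TA: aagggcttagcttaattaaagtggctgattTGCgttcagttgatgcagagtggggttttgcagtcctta
MT-TN: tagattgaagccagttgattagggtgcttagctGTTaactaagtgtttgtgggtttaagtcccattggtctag

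Genes of this genome touch or overlap, which limits how far neighbours can be told apart. MT-RNR2 (chrM:1671-3229) ends at the base before MT-TL1 begins, so that its last 60 bases run on into the MT-TL1 sequence printed above.
End of MT-RNR2: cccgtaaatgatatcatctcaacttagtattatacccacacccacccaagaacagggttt
The end of MT-ATP8 shares 46 bases with the start of MT-ATP6 (chrM:8527-8572), and the end of MT-ND4L shares 7 bases with MT-ND4 (chrM:10760-10766). In the lines below the shared bases are in capitals.
End of MT-ATP8: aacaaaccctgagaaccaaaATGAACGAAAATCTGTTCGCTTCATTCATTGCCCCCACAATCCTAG
End of MT-ND4L: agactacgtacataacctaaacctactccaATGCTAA
MT-TI and MT-TQ overlap by 3 bases on opposite strands, MT-TC and MT-TY by 1 base on the minus strand, and MT-ATP6 and MT-CO3 by 1 base. How reads over a shared base or a gene boundary were assigned, and whether strand was used, is not given in the sources used here. Values of overlapping genes and of tRNA genes, which are 59 to 75 bases long, are uncertain to that extent. The tables also hold nuclear pseudogenes that copy mitochondrial sequence, and how reads that match both were assigned is likewise not given.

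Total counts ranged from 25838443 to 31955119 in the knockdown libraries and from 37655548 to 50303269 in the Reb libraries. The targeted gene CDK16 was at 3223 counts in scramble, 1360 with CDK16-sh1 and 846 with CDK16-sh2. Of 5 markers taken as high in this line, VIM, CD44, MSN and AXL had at least 8803 counts in every library, while CAV1 had 3420 to 5911 counts in the other libraries and 607 at 5 μM Reb. Of 5 taken as low, the hormone receptor genes ESR1 and PGR had at most 12 and 16 counts, but ERBB2 had 996 to 3396, EPCAM 125 to 408 and GATA3 73 to 390. The 5 μM Reb library stood apart, since 23.6% of all genes compared were at least 2-fold higher and 27.2% at least 2-fold lower than in DMSO.

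The share of a library's counts that fell on the mitochondrial genome needs no scaling between libraries. It was 11.3% in scramble, 10.4% with CDK16-sh1 and 16.2% with CDK16-sh2. In the other experiment it was 7.19% in DMSO, 8.30% at 1 μM Reb and 16.4% at 5 μM Reb. The 95% Clopper-Pearson intervals of these shares were narrow, for example 16.41 to 16.44% at 5 μM Reb and 7.181 to 7.195% in DMSO. Like all intervals given here they cover counting error only, since without molecular identifiers several reads can stem from 1 molecule. The CDK16-sh2 and 5 μM Reb libraries were high, and the CDK16-sh1 library lay below its control. Relative to the control the share was 0.925 times with CDK16-sh1, 1.44 times with CDK16-sh2, 1.16 times at 1 μM Reb and 2.29 times at 5 μM Reb. In bulk RNA, more mitochondrial RNA per cell and less nuclear RNA per cell cannot be told apart in such a share.

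**Figure D1:**
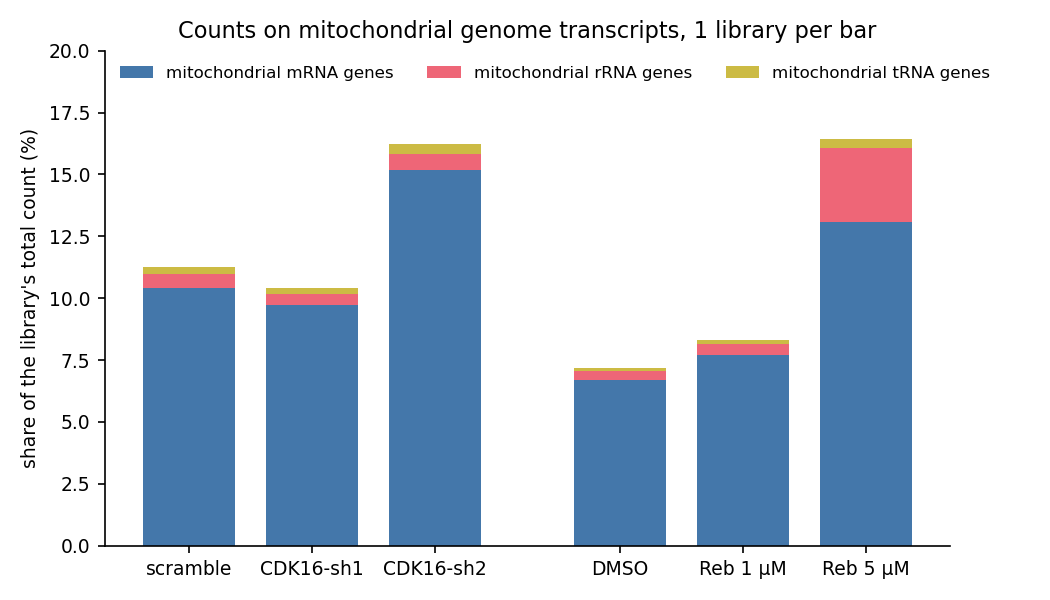
Share of each library's total count (%) on mitochondrial mRNA, rRNA and tRNA genes, stacked, with 1 bar per library and no error bars. The whole bars stand at 11.3, 10.4 and 16.2% for scramble, CDK16-sh1 and CDK16-sh2 and at 7.19, 8.30 and 16.4% for DMSO, 1 μM and 5 μM Reb, where the rRNA segment is 3.0% of the library.

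The classes took unequal parts in these shares. The 13 mRNA genes held 92.6, 93.4 and 93.4% of the mitochondrial counts in scramble, CDK16-sh1 and CDK16-sh2, and 93.0 and 92.7% in DMSO and at 1 μM Reb, but 79.5% at 5 μM Reb. The 2 rRNA genes held 3.99 to 5.57% in the other libraries and 18.3% at 5 μM Reb. The 22 tRNA genes held 1.53 to 2.63% across all libraries. As a share of the whole library, the rRNA genes were at 0.39% in DMSO and 3.0% at 5 μM Reb, which is 7.70 times the control, against 1.95 times for the mRNA genes and 3.26 times for the tRNA genes. With CDK16-sh2 the same ratios to scramble were 1.17 for rRNA, 1.45 for mRNA and 1.51 for tRNA genes.

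Levels of different genes were compared per length, as deposited RPKM (counts scaled to the gene's length and the library's total). In every library the highest member was MT-ATP8, a small subunit of the ATP synthase (complex V), with 32600, 24900 and 57600 RPKM in scramble, CDK16-sh1 and CDK16-sh2 and 20700, 24700 and 33600 RPKM in DMSO, 1 μM and 5 μM Reb. Its reads overlap those of MT-ATP6, another subunit of that enzyme, which was at 17100 to 32800 RPKM. Among the lowest were the tRNA genes MT-TQ, MT-TM and MT-TW in DMSO, at 37.8, 47.7 and 75.4 RPKM. MT-RNR1, the 12S rRNA of the small ribosomal subunit, was at 245 RPKM in DMSO, and MT-RNR2, the 16S rRNA of the large subunit, at 2350 RPKM, below most of the mRNAs. Of the 20 genes with the most counts in each library, 10 to 13 were mitochondrial.

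**Figure D2:**
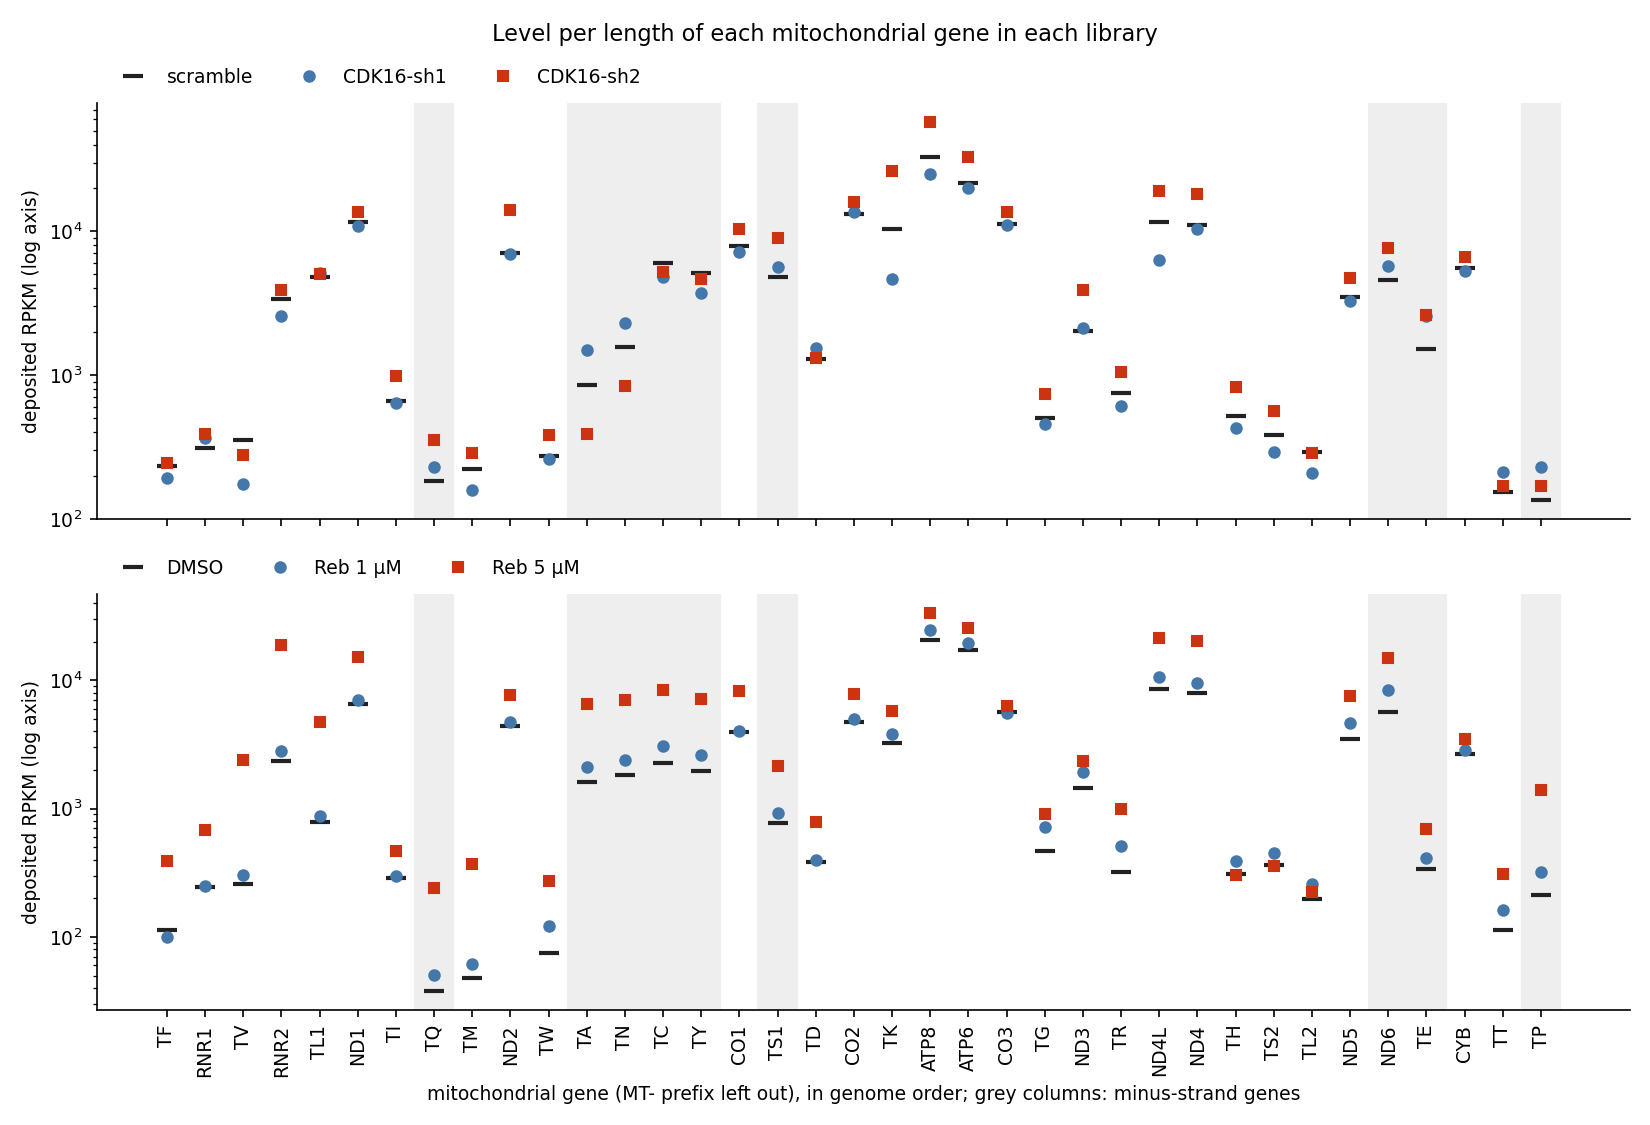
Deposited RPKM (log axis) of each of the 37 mitochondrial genes in genome order, with 1 point per library, knockdown above and Reb below, and minus-strand genes on grey. MT-ATP8 is the highest gene in every library, and MT-RNR2 moves from 2350 RPKM in DMSO to 18800 RPKM at 5 μM Reb.

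After 5 μM Reb, all 37 genes lay above DMSO in log2 fold change, which was taken from TMM-scaled CPM (prior count 2). Of them 33 were at least 2-fold higher and 0 at least 2-fold lower, beside 23.6% and 27.2% of all genes compared. Their median log2 fold change was 2.01, and the median of all genes was -0.07. Scaling by library totals moves every log2 fold change at this dose down by about 0.68. With it 24 of the 37 genes were at least 2-fold higher, beside 11.7% of all genes, and the members' median was 1.32. The median of all genes was then -0.75, and the share of all genes at least 2-fold lower was not computed.

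The 16S rRNA differed most among the abundant members. MT-RNR2 was at 184421 counts in DMSO, 216618 at 1 μM Reb and 1106253 at 5 μM Reb, although the 5 μM library had the lowest total of this experiment. Its log2 fold change was 0.21 at 1 μM and 3.69 at 5 μM (95% interval 3.69 to 3.70), or 3.00 at 5 μM with library totals. It was the gene with the most counts in the 5 μM library, where MT-ATP6 led in DMSO and at 1 μM. The 12S rRNA gene MT-RNR1 was at 11767, 11708 and 24418 counts, with log2 fold changes of -0.03 and 2.16. The RPKM ratio of MT-RNR2 to MT-RNR1 was therefore 9.59 in DMSO, 11.3 at 1 μM and 27.7 at 5 μM. Against MT-ND1, the mRNA that follows it in the genome after MT-TL1, the RPKM ratio of MT-RNR2 was 0.36, 0.404 and 1.24. These ratios within a library do not depend on scaling. The tRNA genes that adjoin MT-RNR2, MT-TV and MT-TL1, had log2 fold changes of 3.92 and 3.30 at 5 μM, on either side of its 3.69, while MT-RNR1 and MT-ND1 beyond them had 2.16 and 1.91.

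Of the 13 mRNAs, 12 were at least 2-fold higher at 5 μM Reb, with a median log2 fold change of 1.5. Complex I, which takes electrons from NADH, has 7 mitochondrial subunits. MT-ND4 was at 555411 counts in DMSO, 650136 at 1 μM and 1052765 at 5 μM, and MT-ND6, the only mRNA on the minus strand, at 150024, 219355 and 295081. Their log2 fold changes at 5 μM were 2.03 and 2.08, the highest of the mRNAs together with MT-ND4L at 2.01. The other subunits of this complex had log2 fold changes of 1.91 for MT-ND1, 1.80 for MT-ND5, 1.5 for MT-ND2 and 1.40 for MT-ND3. In all 7 the 5 μM library was the highest of the 3 in RPKM.

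Complex IV, cytochrome c oxidase, passes electrons to oxygen. MT-CO1, its catalytic core, was at 307736, 308138 and 482668 counts in DMSO, 1 μM and 5 μM Reb, a log2 fold change of 1.76 at 5 μM. MT-CO2 was at 162244, 169016 and 201235 counts, with 1.42 on the same scale. MT-CO3, the third core subunit, was at 223003, 216772 and 186888 counts, so its raw count was lowest in the 5 μM library. Its log2 fold change at 5 μM was 0.85 with TMM scaling and 0.16 with library totals, the lowest of the mRNAs. Cytochrome b, the subunit of complex III encoded by MT-CYB, was at 151722, 161212 and 149414 counts, with a log2 fold change of 1.09 (0.40 with library totals). The ATP synthase subunits MT-ATP6 and MT-ATP8 had 1.28 and 1.39 at 5 μM.

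The tRNA genes spread over a wider range than the mRNAs at 5 μM Reb, from 0.66 to 3.92 on the log2 scale, with 19 of 22 at least 2-fold higher. MT-TV, which lies between the rRNA genes, was at 887, 1032 and 6245 counts in DMSO, 1 μM and 5 μM Reb, with a log2 fold change of 3.92 at 5 μM (95% interval 3.82 to 4.03). MT-TM was at 163, 208 and 954 counts (3.64, interval 3.42 to 3.91), and MT-TP at 721, 1073 and 3567 counts (3.41, interval 3.30 to 3.53). In these 3 the 5 μM library was well above both others, beyond counting error.

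At the other end stood the cluster of MT-TH, MT-TS2 and MT-TL2 between MT-ND4 and MT-ND5. MT-TH was at 1075, 1333 and 787 counts, MT-TS2 at 1067, 1309 and 788, and MT-TL2 at 702, 912 and 600, each highest at 1 μM and lowest at 5 μM in raw counts. Their log2 fold changes at 5 μM were 0.66, 0.67 and 0.88 with TMM scaling, and -0.03, -0.02 and 0.19 with library totals, so the direction of MT-TH and MT-TS2 depends on the scaling. The mRNAs on either side of this cluster, MT-ND4 and MT-ND5, had 2.03 and 1.80. A different cluster of 4 minus-strand tRNA genes, MT-TA, MT-TN, MT-TC and MT-TY, lay within a narrow range, from 2.55 to 2.69, and at 1 μM Reb from 0.34 to 0.38.

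Position in the genome went with the size of the difference at 5 μM Reb. The 5 genes from MT-TF to MT-TL1, which lead the plus strand, had log2 fold changes of 2.16 to 3.92 with a median of 3.30. Across the 28 plus-strand genes, Pearson's r of the log2 fold change with start position was -0.60 and Spearman's rho -0.54. Among the 14 tRNA genes of that strand they were -0.66 and -0.65, and among the 12 mRNA genes -0.20 and -0.06. At 1 μM Reb the 28 genes gave 0.46 and 0.52, so the order along the genome was not that of 5 μM. These are descriptions across genes that share the same pair of libraries, scaling and precursor RNA, and genes are not independent replicates. Pearson's r with the GC content of the 37 genes was 0.09, and with their length -0.13. The 9 minus-strand genes had a median of 2.58 at 5 μM and the 28 plus-strand genes 1.74. Among tRNA genes alone, the 8 on the minus strand had a median of 2.62 and the 14 on the plus strand 1.92. Minus-strand genes held 5.01, 6.33 and 6.17% of the mitochondrial counts in DMSO, 1 μM and 5 μM Reb.

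**Figure D3:**
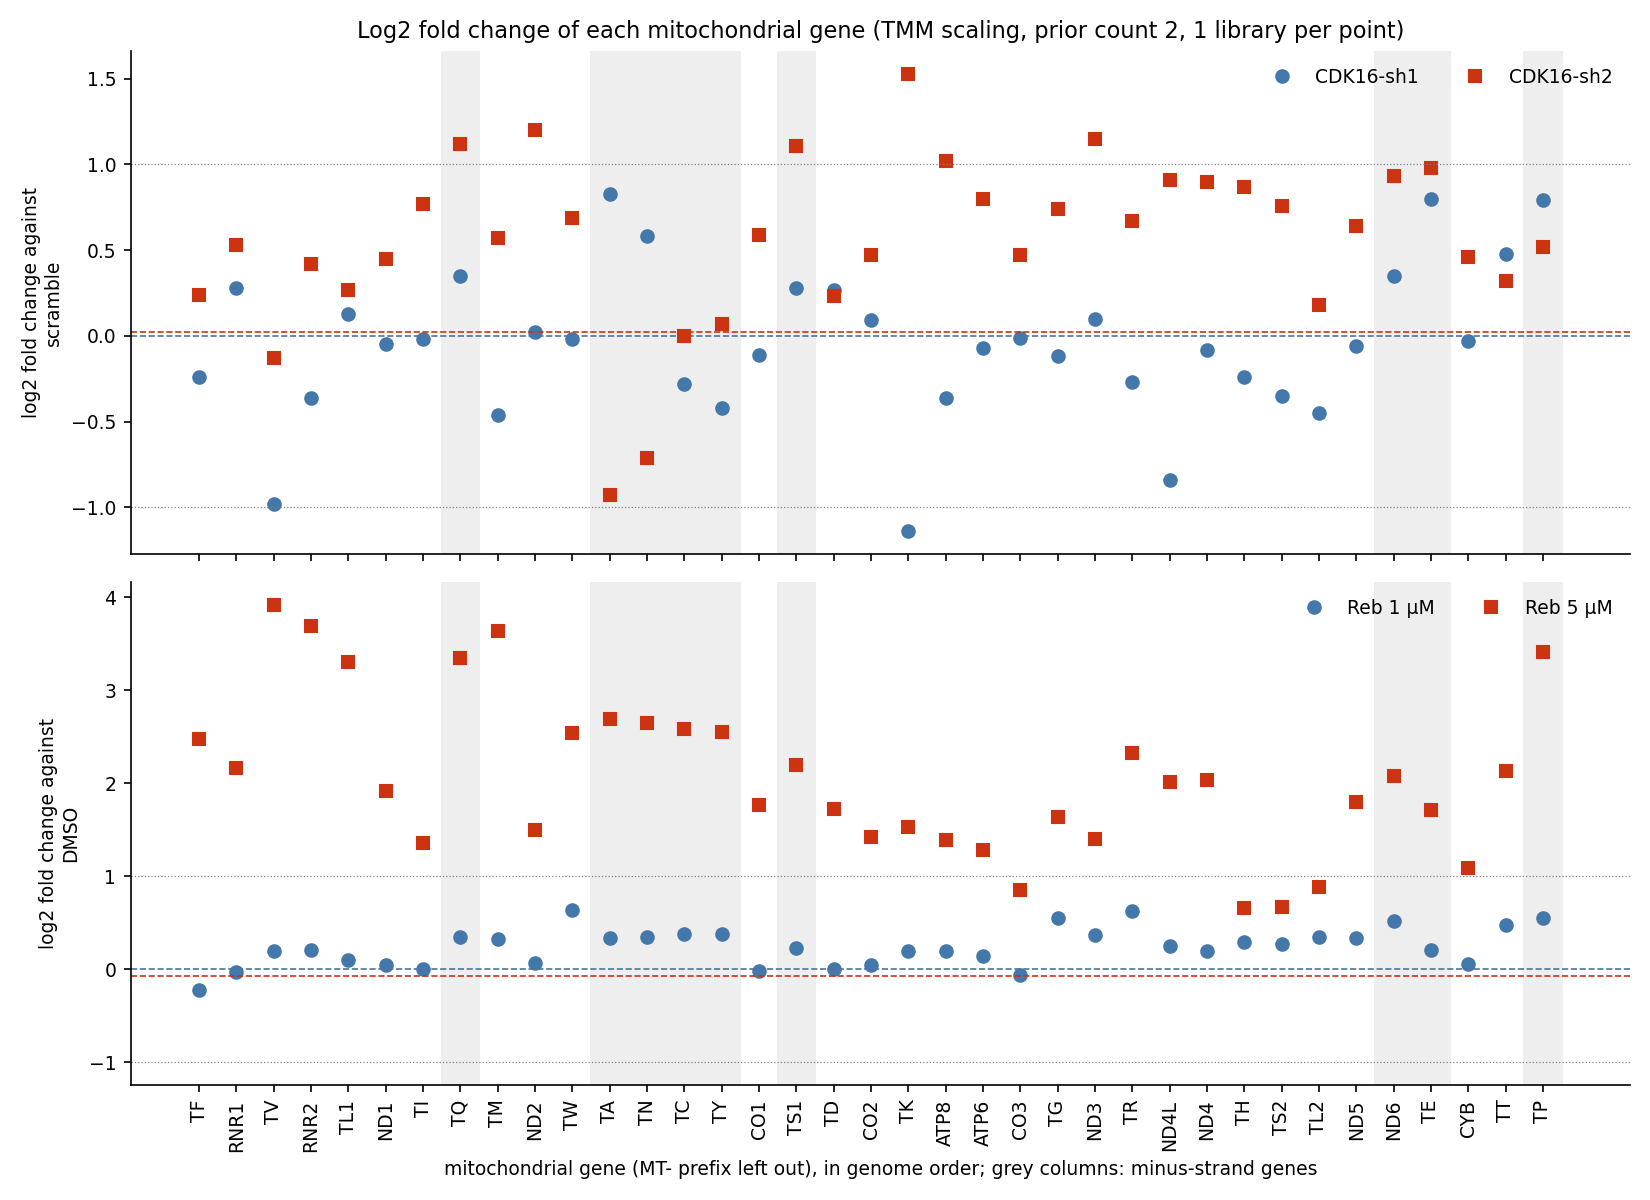
Log2 fold change of the 37 mitochondrial genes in genome order, for the hairpins against scramble (above) and the Reb doses against DMSO (below), with 1 library per point. Dashed lines mark the median of all genes in the same colour, dotted lines 2-fold, and grey columns minus-strand genes. At 5 μM the points run from 3.92 for MT-TV to 0.66 for MT-TH, while at 1 μM they stay between -0.22 and 0.64.

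At 1 μM Reb the members differed less from DMSO. Their log2 fold changes ran from -0.22 (MT-TF) to 0.64 (MT-TW), with a median of 0.23 against 0 for all genes. None of the 37 was at least 2-fold higher or lower, beside 1.28% and 1.92% of all genes. MT-TW, the tRNA for tryptophan, was at 258 counts in DMSO and 410 at 1 μM (interval 0.42 to 0.88), MT-TR at 1052 and 1650, MT-TG at 1611 and 2400, and MT-TP at 721 and 1073. At the lower end, after MT-TF, stood MT-TI, at 1006 and 1023 counts, and MT-TD, at 1307 and 1330, both with a log2 fold change of 0.00. Among the mRNAs the highest values were those of MT-ND6 at 0.52, MT-ND3 at 0.37 and MT-ND5 at 0.34, all in complex I. MT-CO1, MT-CO2 and MT-CO3 stayed at -0.02, 0.04 and -0.06. All 9 minus-strand genes lay above DMSO, from 0.21 to 0.55, as did 22 of the 28 plus-strand genes.

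The hairpins against CDK16 differed from each other in the mitochondrial genes. With CDK16-sh1 the median log2 fold change of the 37 genes was -0.05 and with CDK16-sh2 it was 0.59, beside 0 and 0.02 for all genes. With CDK16-sh1, 0 genes were at least 2-fold higher (4.33% of all genes) and 1 was at least 2-fold lower (6.86% of all genes). With CDK16-sh2, 6 were at least 2-fold higher (2.2% of all genes) and 0 at least 2-fold lower (7.62% of all genes). With library totals the 6 genes become 2, beside 0.994% of all genes.

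The rRNA genes stayed within 2-fold of scramble. MT-RNR1 was at 7616, 11219 and 10224 counts in scramble, CDK16-sh1 and CDK16-sh2, and MT-RNR2 at 135433, 127596 and 167870. Their log2 fold changes were 0.28 and -0.36 with CDK16-sh1, and 0.53 and 0.42 with CDK16-sh2. The RPKM ratio of MT-RNR2 to MT-RNR1 was 10.9, 6.96 and 10.0.

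All 13 mRNAs lay above scramble with CDK16-sh2, from 0.45 (MT-ND1) to 1.20 (MT-ND2) on the log2 scale. MT-ND2 was at 189748 counts in scramble, 232843 with CDK16-sh1 and 404633 with CDK16-sh2. MT-ND3 was at 18015, 23404 and 37006, and MT-ATP8 at 174171, 164735 and 328036. In these complex I and complex V genes the CDK16-sh2 library alone was high, and their log2 fold changes there were 1.20, 1.15 and 1.02. By contrast, MT-CO2 and MT-CO3 of complex IV and MT-CYB of complex III had 0.47, 0.47 and 0.46, and MT-CO1 0.59. The remaining mRNAs, MT-ND4, MT-ND4L, MT-ND5, MT-ND6 and MT-ATP6, had 0.90, 0.91, 0.64, 0.93 and 0.80.

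With CDK16-sh1 the mRNAs lay between -0.11 and 0.35 on this scale, apart from MT-ND4L and MT-ATP8. MT-ND4L was at 89356 counts in scramble, 60298 with CDK16-sh1 and 155937 with CDK16-sh2, with log2 fold changes of -0.84 and 0.91. MT-ND4, which shares its first bases with MT-ND4L, was at 394737, 453780 and 682368, with -0.08 and 0.90. The RPKM ratio of MT-ND4L to MT-ND4 was 1.05 in scramble, 0.617 with CDK16-sh1 and 1.06 with CDK16-sh2, and it was 1.06, 1.10 and 1.04 in DMSO, 1 μM and 5 μM Reb. The CDK16-sh1 library was thus the only one of the 6 in which MT-ND4L was well below its overlapping partner per length. MT-ATP8 had -0.36 with CDK16-sh1, and its RPKM ratio to MT-ATP6 was 1.51, 1.24 and 1.75 in scramble, CDK16-sh1 and CDK16-sh2.

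Some tRNA genes lay on opposite sides of scramble with the 2 hairpins. MT-TK was at 18800 counts in scramble, 10334 with CDK16-sh1 and 50347 with CDK16-sh2. Its log2 fold changes were -1.14 (95% interval -1.17 to -1.11) and 1.53 (interval 1.5 to 1.55), the lowest and the highest of all members. MT-TK directly precedes MT-ATP8, which had -0.36 and 1.02. The opposite order was seen for the minus-strand genes MT-TA, at 1525, 3287 and 743 counts, and MT-TN, at 2955, 5347 and 1681. MT-TA had 0.83 and -0.93, and MT-TN 0.58 and -0.71. Their neighbours in the same cluster, MT-TC and MT-TY, had -0.28 and -0.42 with CDK16-sh1, and 0.00 and 0.07 with CDK16-sh2. The RPKM ratio of MT-TA to MT-TC was thus 0.143, 0.309 and 0.0753 in scramble, CDK16-sh1 and CDK16-sh2.

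The other tRNA genes at the ends of the range were less divided. MT-TE was at 2693, 5695 and 4948 counts in scramble, CDK16-sh1 and CDK16-sh2, above scramble with either hairpin (0.80 and 0.98). MT-TP, at 238, 499 and 318 counts, was also higher with both (0.79 and 0.52). MT-TV, at 628, 385 and 531, had -0.98 and -0.13, and MT-TM, at 390, 343 and 540, had -0.46 and 0.57. MT-TQ and MT-TS1 on the minus strand were at least 2-fold higher with CDK16-sh2 (1.12 and 1.11) and had 0.35 and 0.28 with CDK16-sh1. The abundant MT-TL1 was at 9358, 12365 and 10446 counts, with 0.13 and 0.27.

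The treated libraries of each experiment were also tested together against their control, so that the difference between hairpins or doses stands in for the spread. By the quasi-likelihood test of edgeR, Benjamini-Hochberg adjusted over all genes, 0 of the 37 genes were called with an adjusted p of at most 0.05 and at least 2-fold in either experiment, beside 0% of all genes in each direction for the knockdown and 0.0703% higher and 0.00639% lower for Reb. In that fit the median pooled log2 fold change of the members was 0.31 for the knockdown and 1.38 for Reb. DESeq2's Wald test also called no member in either experiment, and its medians were 0.3 and 1.43. CDK16 itself, at 3223, 1360 and 846 counts, had an adjusted p of 0.804 in the edgeR test of the knockdown. The Reb dose was also fitted as a linear term on the log2(dose + 1) scale, with DMSO taken as 0. The edgeR test then called 21 of the 37 genes higher, beside 13.3% of all genes, and 0 lower. With 1 library per dose, the error of that fit is the departure of 3 libraries from a straight line. It is not a spread between replicates, so these calls have no replicate check.

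Nuclear genes that make and process mitochondrial RNA were read from lists. Among 9 genes of mitochondrial transcription, all lay above scramble with CDK16-sh2 under TMM scaling, with a median log2 fold change of 0.45. With CDK16-sh1, 5 of the 9 lay below scramble, with a median of -0.10. Not all lay above scramble with CDK16-sh2 by library totals, where MTERF3 was at 7.857 CPM in scramble and 7.637 CPM with CDK16-sh2. The list's median was then 0.25. None passed 2-fold with either hairpin. Of all genes 4.33% were at least 2-fold higher and 6.86% lower with CDK16-sh1, and 2.2% and 7.62% with CDK16-sh2. POLRMT, the mitochondrial RNA polymerase, was at 1153, 1517 and 1716 counts (0.12 and 0.68). TFAM, which packages the genome and starts transcription, was at 1481, 1285 and 1730 (-0.48 and 0.33), TFB2M, the partner that opens the promoter, at 540, 371 and 605 (-0.81 and 0.27), and the elongation factor TEFM at 294, 369 and 331 (0.05 and 0.28). TFB1M, which methylates the 12S rRNA, had 0.25 and 0.80, and MTERF3, a negative regulator of this transcription, 0.12 and 0.15.

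In the Reb experiment the same list had a median of 0.19 at 1 μM and -0.10 at 5 μM, where 3 of 9 genes were at least 2-fold higher and 1 lower, beside 23.6% and 27.2% of all genes. With library totals there were 0 higher, beside 11.7% of all genes, and 4 lower, for which the share of all genes was not computed. The list's median was then -0.78, beside -0.75 for all genes. TFAM was at 2126, 2466 and 2953 counts in DMSO, 1 μM and 5 μM, TFB2M at 730, 794 and 899, and MTERF3 at 533, 737 and 754. These were the 3 higher genes, with 1.58, 1.41 and 1.60 at 5 μM, or 0.89, 0.72 and 0.92 with library totals. POLRMT was at 3028, 2376 and 790 counts, with -0.37 and -0.83. TEFM was at 275, 433 and 134 (0.63 and 0.07), with -0.61 at 5 μM by library totals, so its direction there depends on the scaling. The polymerase and the initiation factors TFAM and TFB2M lay on opposite sides of DMSO at 5 μM under either scaling.

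Genes of mitochondrial DNA replication had a median of -1.42 at 5 μM Reb, with 8 of 12 at least 2-fold lower and 1 higher, beside 27.2% and 23.6% of all genes. With library totals the median was -2.10, beside -0.75 for all genes. There 9 were lower, for which the share of all genes was not computed, and 0 higher, beside 11.7% of all genes higher. POLG, the catalytic subunit of the mitochondrial DNA polymerase, was at 6598, 6959 and 909 counts (0.05 and -1.75), and its accessory subunit POLG2 at 1478, 1390 and 302 (-0.11 and -1.18). LIG3, the ligase, was at 2240, 1990 and 247 (-0.19 and -2.07), and the helicase Twinkle, listed under its older symbol C10orf2, at 5706, 4460 and 1563 (-0.38 and -0.76). RNASEH1, which removes RNA primers, was the higher gene, at 2256, 2453 and 2868 (0.10 and 1.45), and SSBP1, the single-strand binding protein, had 0.03 and 0.73. In the knockdown the list had medians of 0.09 and 0.16. By library totals the CDK16-sh2 median was -0.04, so its direction depends on the scaling. POLG was at 1867, 2617 and 3018 counts (0.21 and 0.80) and C10orf2 at 1859, 2900 and 2914 (0.36 and 0.75), both above scramble with either hairpin. DNA2, a nuclease and helicase, was the 1 gene past 2-fold, at -1.10 with CDK16-sh1, where 6.86% of all genes were at least 2-fold lower. It had -0.56 with CDK16-sh2, and PRIMPOL, a primase, had -0.66 and -0.98. SSBP1 and the topoisomerase TOP1MT lay above scramble with either hairpin (0.36 and 0.37, 0.47 and 0.50), and the topoisomerase TOP3A had -0.03 and -0.30.

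The list of 33 RNA processing and decay factors had medians of 0.07 and 0.18 in the knockdown. With library totals the CDK16-sh2 median was -0.02, beside -0.18 for all genes, so its direction depends on the scaling. With each hairpin 1 gene was at least 2-fold higher, beside 4.33% (CDK16-sh1) and 2.2% (CDK16-sh2) of all genes. That gene was HSD17B10, a subunit of mitochondrial RNase P, which cuts tRNA 5′ ends, at 948, 4577 and 2316 counts (1.99 and 1.39). Its adjusted p in the edgeR test was 1, as was that of every gene in the nuclear lists. LRPPRC, which stabilises mitochondrial mRNAs, was at 3237, 3181 and 2209 counts (-0.30 and -0.44), and its partner SLIRP at 2394, 3431 and 3277 (0.24 and 0.56). SUPV3L1 and PNPT1, the helicase and ribonuclease that degrade mitochondrial RNA, had 0.32 and -0.41 with CDK16-sh1 and 0.86 and 0.08 with CDK16-sh2. The methyltransferase MRM3, which modifies the 16S rRNA, had 0.45 and 0.87, whereas PDE12, which removes poly(A) tails, had -0.60 and -0.65 and FASTKD2 -0.40 and -0.35.

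At 5 μM Reb the median of the RNA processing list was -0.34, with 6 of 33 at least 2-fold higher and 10 lower, beside 23.6% and 27.2% of all genes. With library totals the median was -1.0, beside -0.75 for all genes. There 4 were higher, beside 11.7% of all genes, and 17 lower, for which the share of all genes was not computed. FASTKD5, needed for mRNA ends that no tRNA marks, was at 535, 664 and 2428 counts in DMSO, 1 μM and 5 μM (0.29 and 3.28), and FASTKD3 at 185, 234 and 370 (0.31 and 2.09). TRIT1, which modifies tRNAs, had 0.48 and 1.66. DHX30, a helicase of mitochondrial RNA granules, was at 7438, 6251 and 983 (-0.27 and -1.81), and the tRNA-modifying enzymes PUS1 and GTPBP3 had -1.47 and -1.33 at 5 μM. LRPPRC was at 4187, 4555 and 1900 counts (0.10 and -0.03), SLIRP at 6384, 7361 and 6489 (0.18 and 1.13), SUPV3L1 at 1283, 1280 and 697 (-0.03 and 0.23) and PNPT1 at 1838, 2095 and 513 (0.17 and -0.73). With library totals LRPPRC had -0.72 and SUPV3L1 -0.46, so the direction of SUPV3L1 depends on the scaling.

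Among 8 coactivators and transcription factors of mitochondrial genes, 4 were at least 2-fold higher at 5 μM Reb and 0 lower, with a median of 0.85, beside 23.6% and 27.2% of all genes. With library totals there were 3 higher, beside 11.7% of all genes, and 1 lower, for which the share of all genes was not computed. The median was then 0.16, beside -0.75 for all genes. PPARGC1B, a coactivator of the PGC-1 family, was at 405, 509 and 2284 counts (0.30 and 3.6), and its relative PPARGC1A at 98, 173 and 160 (0.78 and 1.79). ESRRA, a nuclear receptor that works with them, was at 1455, 1142 and 404 (-0.37 and -0.74), and NRF1, a transcription factor of nuclear respiratory genes, at 620, 477 and 305 (-0.40 and 0.08, or -0.60 at 5 μM with library totals). PPRC1, the third member of the PGC-1 family, had -0.12 and -0.13. In the knockdown this list had medians of -0.20 and -0.21, or -0.41 with CDK16-sh2 by library totals. None of its genes passed 2-fold, beside the shares of all genes given for the transcription list. PPARGC1A was at 61, 49 and 45 counts (-0.57 and -0.32) and NRF1 at 363, 439 and 311 (0.00 and -0.12). PPRC1 had 0.31 and 0.29, and the transcription factors YY1 and GABPA had -0.30 and -0.30, and -0.10 and -0.37.

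The mitochondrial mRNAs were set beside the 72 nuclear-encoded subunits of the same complexes. With CDK16-sh1, 6 of the nuclear subunits lay below scramble and 4 were at least 2-fold higher, beside 4.33% of all genes. Their median log2 fold change was 0.43, while the 13 mitochondrial mRNAs had -0.05. With CDK16-sh2 the order was turned, at 0.28 for nuclear and 0.80 for mitochondrial subunits. By library totals the nuclear median with CDK16-sh2 was 0.08. NDUFA3 of complex I, for example, was at 247, 678 and 372 counts (1.17 and 0.69), UQCR11 of complex III at 615, 1082 and 930 (0.54 and 0.70), COX4I1 of complex IV at 9353, 14094 and 12048 (0.31 and 0.47), and ATP5G1 of complex V at 373, 838 and 446 (0.89 and 0.36). The nuclear subunits NDUFB8, NDUFA8, UQCRQ, UQCRB, COX7A2, COX5B, ATP5E and ATP5F1 also lay above scramble with either hairpin, from 0.29 (ATP5F1, CDK16-sh2) to 0.82 (ATP5E, CDK16-sh1). NDUFS1 of complex I was lower with both, at 3116, 2212 and 2575 (-0.77 and -0.17).

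At 1 μM Reb the nuclear subunits had a median of 0.07 and the mitochondrial mRNAs 0.14. At 5 μM the medians were 0.91 and 1.5, and 33 of the 72 nuclear subunits were at least 2-fold higher and 3 lower, beside 23.6% and 27.2% of all genes. With library totals the nuclear median was 0.22, beside -0.75 for all genes. There 13 were higher, beside 11.7% of all genes, and 4 lower, for which the share of all genes was not computed. Complex IV had the highest nuclear median of the 4 complexes, 1.54, beside 0.75 in complex I, 0.88 in complex III and 0.78 in complex V. COX6C of complex IV was at 13865, 16045 and 33997 counts in DMSO, 1 μM and 5 μM (0.19 and 2.40), NDUFA5 of complex I at 1439, 1921 and 2950 (0.39 and 2.14), UQCRFS1 of complex III at 1128, 1534 and 1759 (0.42 and 1.75) and ATP5L of complex V at 3316, 4138 and 6702 (0.30 and 2.12). On the other side, ATP5G2 of complex V was at 882, 692 and 155 counts (-0.37 and -1.39). NDUFS8 of complex I had -0.47 and -0.78. Higher at 5 μM under either scaling were NDUFB9 (2.07), UQCRB (1.56), COX7A2 (1.43), COX6B1 (0.90) and ATP5H (0.97). NDUFAB1, UQCRC2 and ATP5G3 had 0.66, 0.23 and 0.51 with TMM scaling but -0.03, -0.46 and -0.18 with library totals, and UQCRC1 had -0.03 and -0.72. In complex I all 7 mitochondrial mRNAs lay above the nuclear median at 5 μM, and in complex IV MT-CO2 and MT-CO3 lay below it.

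**Figure D4:**
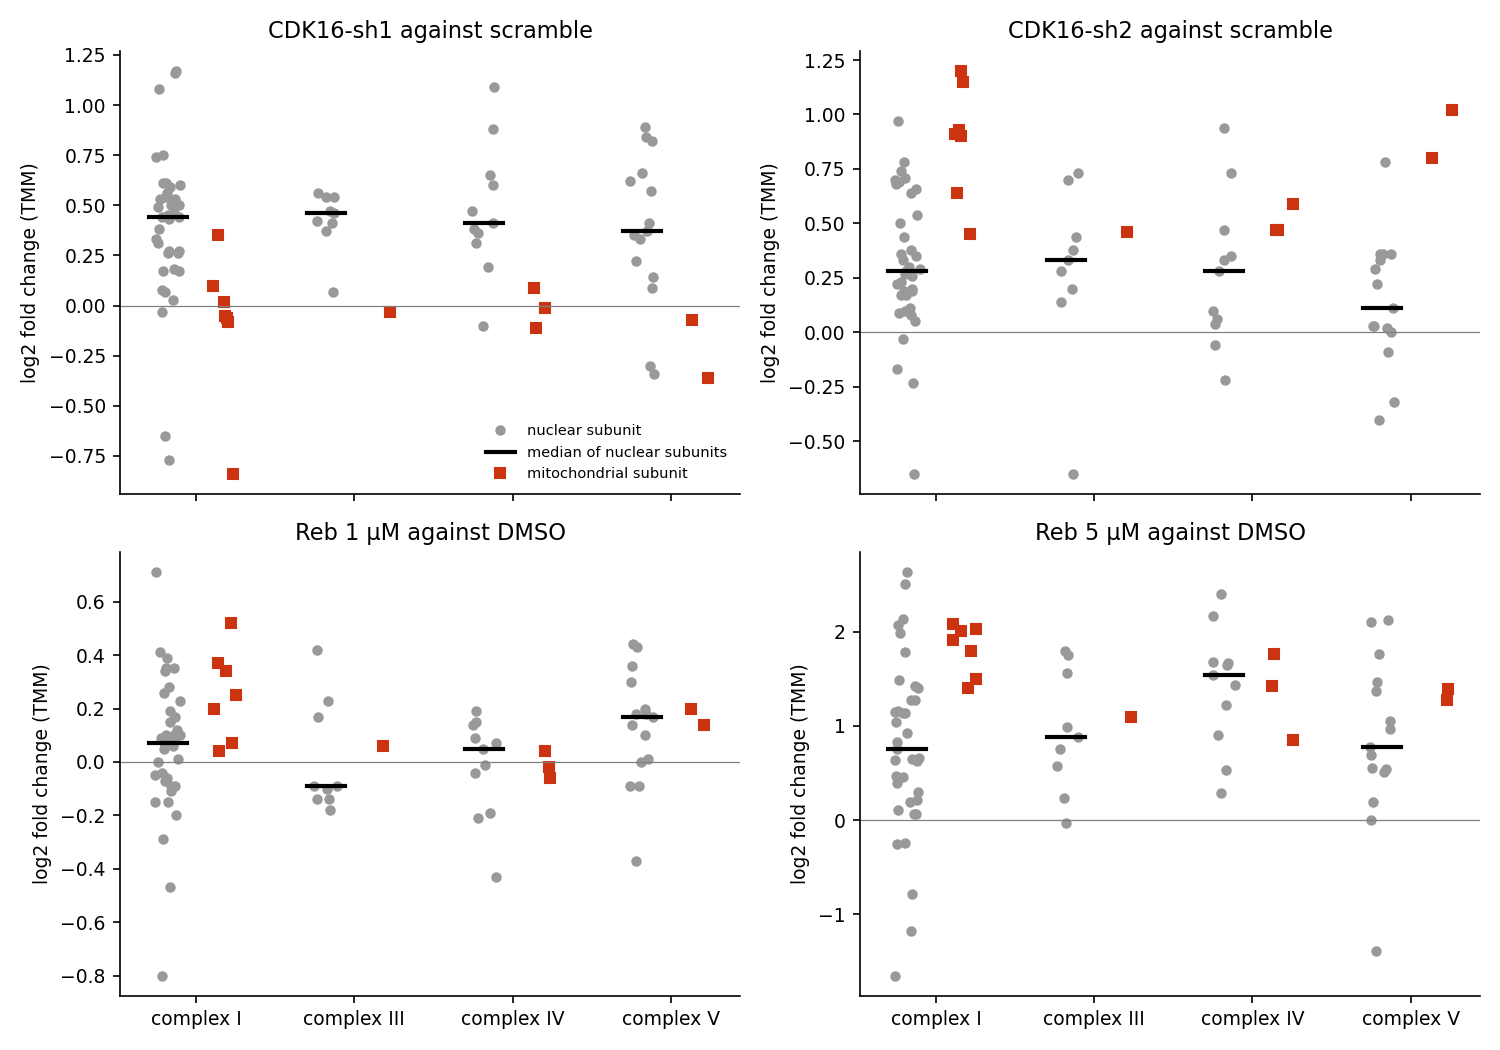
Log2 fold change of nuclear-encoded (grey circles, with their median as a black line) and mitochondrial (red squares) subunits of respiratory complexes I, III, IV and V, with 1 library per treated condition and a panel for each. With CDK16-sh1 the nuclear medians lie at 0.37 to 0.46 and most mitochondrial mRNAs near 0, and with CDK16-sh2 the mitochondrial mRNAs lie above the nuclear medians.

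General markers of mitochondrial content were divided. Of 9 such genes, 3 were at least 2-fold higher and 1 lower at 5 μM Reb, beside 23.6% and 27.2% of all genes. With library totals there were 3 higher, beside 11.7% of all genes, and 2 lower, for which the share of all genes was not computed. None passed 2-fold with a hairpin or at 1 μM. The outer membrane channels VDAC1 and VDAC2 were at 7624, 9609 and 13513 counts (1.93 at 5 μM) and 6572, 8188 and 16998 (2.48), citrate synthase (CS) at 2727, 2597 and 1087 (-0.22) and the import receptor TOMM22 at 939, 924 and 207 (-1.07). Cytochrome c (CYCS) had 0.27 and 0.91, and IMMT, which shapes the inner membrane, -0.02 and -0.36. In the knockdown TOMM22 was at 1179, 2415 and 1563 (0.76 and 0.51) and the prohibitin PHB at 6805, 12890 and 8897 (0.64 and 0.49), PHB2 had 0.22 and 0.33, and IMMT -0.15 and -0.17.

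RNAs that carry no poly(A) tail can enter an mRNA library to a varying degree, so their share is given beside the mitochondrial rRNA and tRNA values. Nuclear RNAs of this kind, such as snoRNAs, snRNAs and histone mRNAs, took 0.0612, 0.0448 and 0.063% of the counts in scramble, CDK16-sh1 and CDK16-sh2, and 0.058, 0.0448 and 0.12% in DMSO, 1 μM and 5 μM Reb. The 5 μM library was thus high for these RNAs as well as for mitochondrial rRNA, and the part of this in the mitochondrial values was not tested. Nuclear pseudogenes with mitochondrial sequence took 0.436, 0.408 and 0.689% of the counts in the knockdown libraries, and 0.251, 0.269 and 0.324% in the Reb libraries. Relative to the mitochondrial counts this was 3.24 to 4.24% in the other libraries and 1.97% at 5 μM Reb. How far reads were shared between these pseudogenes and the members was not tested.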

How the data were processed

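RNA was sequenced from 6 MDA-MB-231 libraries, 1 per condition, from a stranded mRNA kit on a HiSeq X 10. The submitters' processing notes name Trimmomatic, featureCounts, Subread 1.5.1 and GRCh38. The aligner's settings, the annotation and the strand setting are not given in the sources used here. The deposited count tables hold the authors' whole-number read count per gene and library without normalization, and the deposited RPKM tables hold the authors' same counts divided by gene length and library total. No column of another series was present.

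Counts were scaled per experiment with edgeR 4.0.16 (R 4.3.3, TMM, prior count 2) over genes averaging 1 CPM or more. Each treated library was compared with its own control, and 2-fold, the study's threshold, marks a gene as past. Intervals are 95% Clopper-Pearson intervals. Those of log2 fold changes use 2 libraries' counts (R 4.3.3), and those of mitochondrial shares use each library's own counts (scipy 1.17.1). The pooled test was the quasi-likelihood test of edgeR, Benjamini-Hochberg adjusted over all genes, with DESeq2 1.42.0 as an alternative. The fits were tested on simulated data. Total counts of 25838443 to 50303269 make counting error small for the abundant members. It is wider for tRNA genes with few counts, such as MT-TQ, whose interval at 1 μM Reb was 0.02 to 0.69. The spread between libraries is unknown and cannot be estimated here. No test was made across the experiments, whose tables were made separately.

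The members and lists were chosen with earlier results of these data known. Named were all rRNA and mRNA genes, the tRNA genes with the 3 highest and 3 lowest log2 fold changes in each treated library and the 3 highest mean counts, 12 fixed nuclear genes, and in each nuclear list up to 3 genes in either direction that moved alike in both treated libraries and averaged 5 CPM or more, ordered by their smaller change. MT-TY was named after its values were seen. Of the genes this rule selects, 1 is not reported here.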

Additional observations from a re-analysis of the deposited data

Results flagged for a closer look

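MT-TK, the mitochondrial tRNA gene for lysine, lay past 2-fold below scramble with CDK16-sh1, at a log2 fold change of -1.14, and past 2-fold above it with CDK16-sh2, at 1.53. It stands here because the only library of either hairpin moved the opposite way from the other. The difference was not tested, since each hairpin had 1 library. With groups of 1 library, no sample could be compared with others of its group.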

How the results depend on the processing

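No paired analysis was possible because each condition had 1 library. Without replicates, no value here has an error beyond counting error, and the spread between cultures is unknown. No member that was past 2-fold changed its direction under the scalings, prior counts, filters or RPKM values tried. Scaling by library totals gave medians of the 37 genes of 0.39 (CDK16-sh2), 0.28 (1 μM Reb) and 1.32 (5 μM Reb), and RPKM with 0.1 added gave the same 3 values. Totals without mitochondrial genes gave -0.10 (CDK16-sh1), 0.48, 0.30 and 1.47. At 5 μM, DESeq2 size factors gave 2.07 and TMM without a filter on low counts 1.81. With library totals and with RPKM, 2 genes were past 2-fold lower with CDK16-sh1, 2 higher and 1 lower with CDK16-sh2. With library totals 0.994% of all genes were at least 2-fold higher with CDK16-sh2. Totals without mitochondrial genes gave 2 lower with CDK16-sh1 and 1 lower with CDK16-sh2. A threshold of 1.5-fold gave 3 higher and 3 lower with CDK16-sh1, 19 higher and 2 lower with CDK16-sh2 and 2 higher at 1 μM. A threshold of 4-fold gave 0 lower with CDK16-sh1, 0 higher with CDK16-sh2 and 19 higher at 5 μM. Except for the 0.994% given above, the share of all genes was not computed for these counts past a threshold, so they have no background to be read against. With dose as a linear term the edgeR test called 21 members higher for Reb, in a fit whose error is only the departure from a straight line. The median pooled log2 fold change was 0.31 for the knockdown and ranged from -0.05 without CDK16-sh2 to 0.59 without CDK16-sh1. For Reb it was 1.38, and ranged from 0.23 without the 5 μM library to 2.01 without the 1 μM library. With mitochondrial mRNA genes only, the shares were 10.5, 9.80 and 15.3% in scramble, CDK16-sh1 and CDK16-sh2 and 6.72, 7.75 and 13.5% in DMSO, 1 μM and 5 μM Reb. Leaving nuclear RNAs without poly(A) tails out of the total left 16.4% at 5 μM. Library totals for the nuclear lists were tried after the data were seen. The cause of these shifts was not tested beyond the scaling itself.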

Other observations

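The control libraries of the experiments differed in their mitochondrial transcripts, although both are MDA-MB-231 cells without CDK16 knockdown or Reb. The values are set side by side without a test, since the tables were made separately. The mitochondrial share of counts was 11.3% in scramble and 7.19% in DMSO. MT-TL1 was at 4830 RPKM in scramble and 780 RPKM in DMSO, MT-TS1 at 4780 and 766 RPKM, and MT-TK at 10400 and 3230 RPKM. MT-TA, by contrast, was at 855 RPKM in scramble and 1620 RPKM in DMSO, and MT-ND6 at 4560 and 5680 RPKM. The RPKM ratio of MT-TA to MT-TC was 0.143 in scramble and 0.716 in DMSO, and that of MT-ATP6 to MT-CO3 was 1.91 and 3.02. MT-ND4L to MT-ND4 gave 1.05 and 1.06. The scramble cells had been stably transfected and the DMSO cells had received vehicle for 48 h, so the hairpin vector, the vehicle and the experiment cannot be told apart here.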
